A study of Mus musculus with 2 samples.

Results

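The 10 genes described here are listed as cytotoxic granule and natural killer (NK) receptor genes. They encode granule cargo (Prf1, Gzma, Gzmb, Gzmc and Gzmk), proteins listed with it (Nkg7, Ctsw and Srgn) and 2 NK cell receptors, Klrd1 and Klrk1. They were chosen by name, as every probe set whose annotation gives exactly 1 of these symbols. All 10 were measured, by 11 of the 18003 probe sets with 1 gene symbol, among 11807 genes in all. Gene expression was measured on 2 Affymetrix arrays, 1 per group, so no difference has a replicate check and no test was run. Both cultures held naive CD4+ T cells of female C57BL/6J mice, taken from spleen and lymph nodes and activated for 60 h on plate-bound antibodies against CD3 and CD28. The untreated culture received no further cytokine, and the other received recombinant mouse IL-27 at 25 ng/ml. The sources used here do not say how many animals gave cells to each culture. Directions follow the labels of the arrays, although Il21 and Prdm1, which IL-27 is known to raise in T cells, were lower on the IL-27-labelled array. The arrays are therefore called the untreated-labelled and the IL-27-labelled array, and pairs of intensities are given in that order. An exchange of the labels was not tested, and with exchanged labels every direction given here would turn.

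Cytotoxic lymphocytes keep perforin and granzymes in secretory lysosomes, packed on the proteoglycan serglycin, and release them towards a bound target cell. Perforin opens pores in the target's membrane, and the granzymes, which are serine proteases, enter and cleave proteins that drive cell death. CD8+ T cells and NK cells use this programme most, and activated CD4+ T cells acquire parts of it. IL-27, a cytokine of the IL-12 family, is known to raise granzyme B and perforin in CD8+ T cells, and the comparison here shows their level in CD4+ T cells activated without and with it.

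All 11 member probe sets had a lower measured value on the IL-27-labelled array, but by very different amounts. They include Gzmk, which was below background on both arrays, and a dimmer Prf1 probe set that differed by only -0.04. Perforin, Ctsw and both NK receptors had differences between -3.21 and -2.22 on the log2 scale of measured values, whereas Gzmb, Gzmc and Srgn were within 2-fold. Of the 9 members above background on at least 1 array, 6 were at least 2-fold lower and 0 were 2-fold or more higher, where the shares over the 7133 genes with such a level were 2.66% lower and 1.46% higher. All 9 were lower by any amount, as were 47.9% of those genes. The median difference of the 9 members was -1.62, beside 0.01 over all genes above background, whose middle quartiles ran from -0.21 to 0.22. Of the 6 members called lower, 4 were above background on the untreated-labelled array only and passed through that array. In RNA from a whole culture, fewer cells that express a gene and less RNA per expressing cell cannot be told apart. Background here is a floor of 20.9 (4.39 in log2 units), set from genes of other tissues, and where the dimmer array is below it the fold is a minimum, computed against the floor. With values under the floor raised to it, 5 members were at least 2-fold lower, against 2.43% of all genes, and 0 higher, against 1.37%. By probe set, 6 of 10 with a level above background passed 2-fold downwards (2.49% of all probe sets) and 0 higher (1.28%). At 1.5-fold 7 members were lower (7.16% of genes) and at 3-fold 5 (0.981%).

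**Figure D1:**
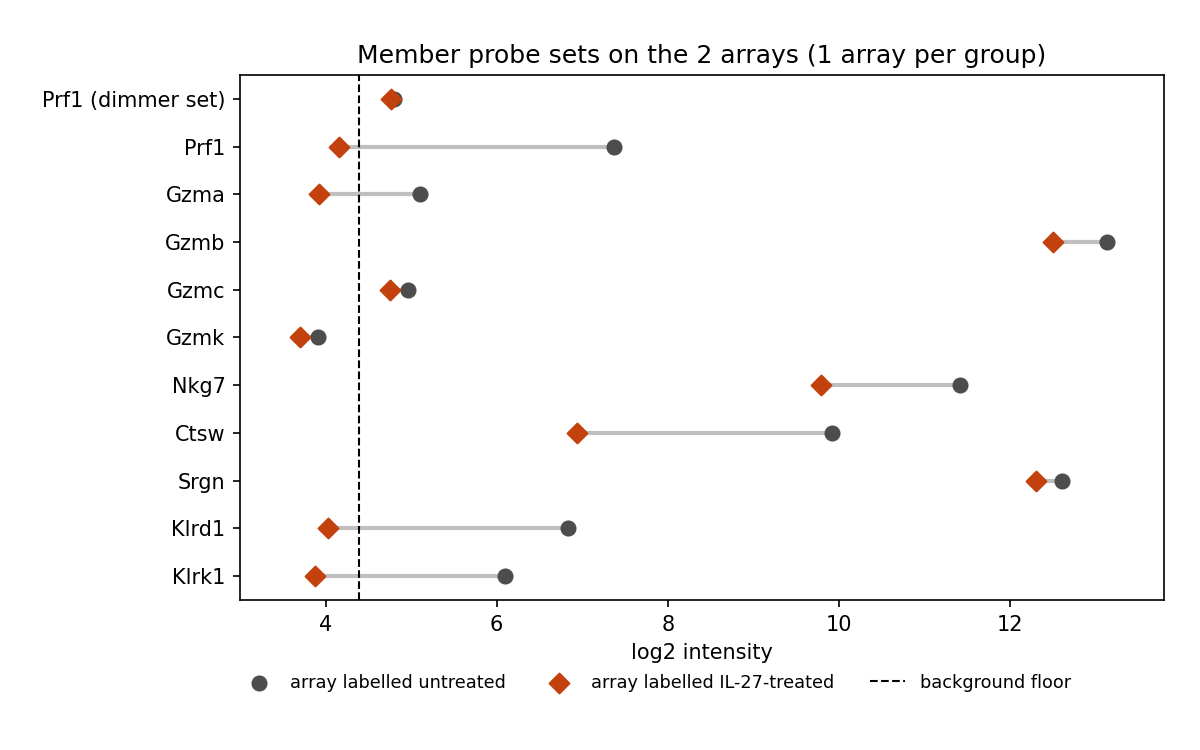
Log2 intensity (x axis) of each member probe set (rows) on the untreated-labelled array (grey circles) and the IL-27-labelled array (orange diamonds), 1 array per group and thus no error bars. The dashed line is the background floor at 4.39, and every diamond lies to the left of its circle, by little for Srgn, Gzmc and the dimmer probe set of Prf1 and by most for the brighter probe set of Prf1.

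The promoters of 5 members are shown, 4 called lower (Prf1, Gzma, Nkg7 and Klrk1) and 1 within 2-fold (Gzmb), with differences from -3.21 to -0.63. Gzmc and Srgn, whose differences were smaller, and Gzmk have entries that are not shown. Ctsw and Klrd1 have no entry. Each line gives the 250 bases before the transcript start in RefSeq, build GRCm38.p6, read 5′ to 3′ on the gene's strand. Capitals mark matches on either strand to 5 short motifs: Runx (TGTGGT), T-box (TCACACC), AP-1 (TGANTCA), STAT (TTCNNNGAA) and a Blimp-1-like core (GAAAGT), and no 2 of these matches overlap in the 5 windows.
Prf1, chr10:61297586-61297835, plus strand: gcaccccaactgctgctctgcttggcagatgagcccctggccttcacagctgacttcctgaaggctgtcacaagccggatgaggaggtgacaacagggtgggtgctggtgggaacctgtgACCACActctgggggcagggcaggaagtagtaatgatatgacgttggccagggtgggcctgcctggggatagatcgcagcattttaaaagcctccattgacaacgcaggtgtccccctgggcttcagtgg
Gzma, chr13:113100982-113101231, minus strand: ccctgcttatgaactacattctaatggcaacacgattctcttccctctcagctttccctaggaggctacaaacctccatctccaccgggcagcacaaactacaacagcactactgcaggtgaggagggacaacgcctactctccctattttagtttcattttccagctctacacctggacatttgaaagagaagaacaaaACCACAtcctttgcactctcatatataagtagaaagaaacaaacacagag
Nkg7, chr7:43436888-43437137, plus strand: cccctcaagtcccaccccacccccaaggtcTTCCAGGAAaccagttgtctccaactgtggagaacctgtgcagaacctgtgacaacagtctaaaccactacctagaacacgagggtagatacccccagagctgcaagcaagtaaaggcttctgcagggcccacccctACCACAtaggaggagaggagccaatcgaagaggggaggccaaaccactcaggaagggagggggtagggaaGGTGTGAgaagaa
Klrk1, chr6:129623865-129624114, minus strand: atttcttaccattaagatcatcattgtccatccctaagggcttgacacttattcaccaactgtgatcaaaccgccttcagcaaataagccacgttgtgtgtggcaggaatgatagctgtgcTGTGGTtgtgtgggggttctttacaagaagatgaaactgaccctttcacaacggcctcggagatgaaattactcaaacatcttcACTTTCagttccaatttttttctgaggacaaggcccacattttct
Gzmb, chr14:56262335-56262584, minus strand: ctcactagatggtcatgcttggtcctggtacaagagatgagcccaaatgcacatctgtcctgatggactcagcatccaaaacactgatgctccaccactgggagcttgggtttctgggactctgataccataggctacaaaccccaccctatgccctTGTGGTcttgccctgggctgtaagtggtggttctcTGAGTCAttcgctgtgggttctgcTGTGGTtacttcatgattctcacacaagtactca

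The Runx letters were common to these windows. Of the 8 members with a promoter entry, 7 held TGTGGT or its reverse complement in at least 1 entry. Srgn held it in 1 of its 2 entries, and Gzmb and Gzmc at 2 places each. The share over 32851 single promoter windows of the same length was 14.0%. Runx factors are known regulators of perforin and granzyme genes in CD8+ T cells. In Prf1 the match lay 125 to 130 bases before the start, in Nkg7 78 to 83 and in Gzma 45 to 50. The Runx letters stood in windows of members called lower and of members within 2-fold. T-box letters, found in 3.33% of all windows, were in those of Nkg7 and Gzmk, AP-1 letters (6.75%) in that of Gzmb and STAT letters (7.02%) in that of Nkg7. The Blimp-1-like core, in 12.3% of all windows, was found for Gzmc, Klrk1 and Srgn. The E-box CANNTG, in 66.2% of all windows, was found for all 8 members and the NFAT core GGAAA, in 55.6%, for 3. A match is a run of letters and not a shown binding site.

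Prf1, which encodes perforin, gave the largest difference among the members, but its probe sets disagreed. It was the only member with several probe sets, so such disagreement could not be seen for the others. By the brighter probe set, of a type that can match several transcripts, Prf1 read 165 on the untreated-labelled array and 17.8, below the floor, on the other. It was thus at least 7.89-fold lower, and 15 of 7133 genes, itself included, had a measured difference as low. The other probe set, of the plain type, gave intensities of 28.0 and 27.2 and a difference of -0.04. That probe set stayed above the floor on both arrays, by 0.42 and 0.38 on the log2 scale. The range of 3.17 between the differences of the Prf1 probe sets was the widest among 2375 genes with several probe sets above background, whose median range was 0.21 and 90th percentile 0.54. The next widest belonged to Mt1, a metallothionein gene named after its value was seen, at 2.58. By its dimmer probe set Prf1 would not count as lower, and 5 members would remain. With every gene read by its dimmest probe set, 2.77% of genes were lower.

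**Figure D2:**
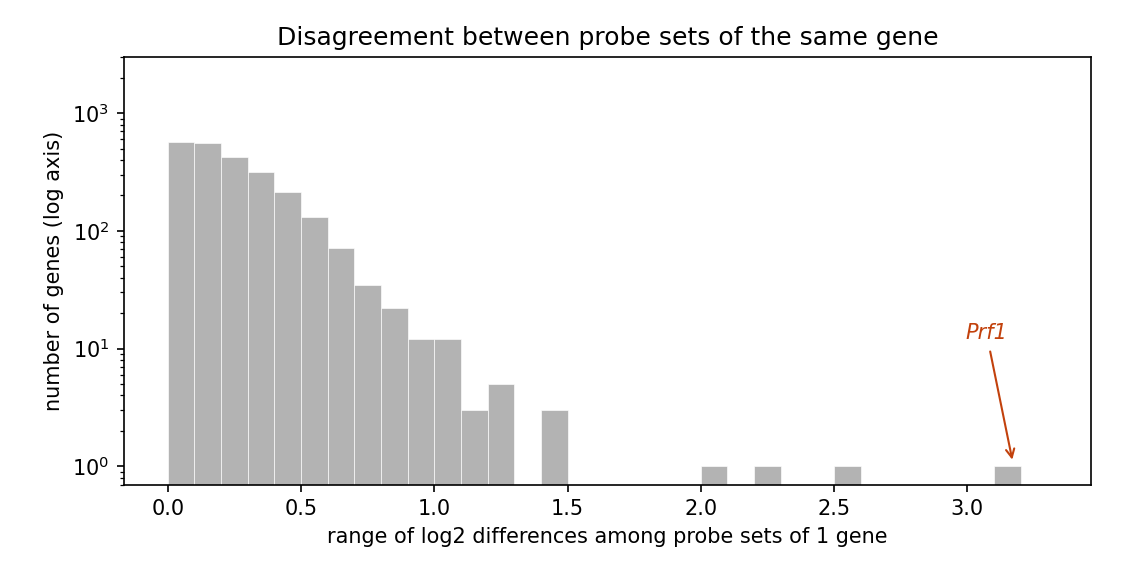
Number of genes (y axis, log scale) by the range of log2 differences among probe sets of the same gene (x axis, highest minus lowest), over 2375 genes with at least 2 probe sets above background. Prf1 lies alone at 3.17, while the median gene has a range of 0.21.

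The granzymes split by level. Gzmb, whose product cleaves caspases and other substrates after aspartate, was bright on both arrays, at 9004 and 5814, in a table whose highest value was 15041. Its difference was -0.63, or 1.55-fold lower on the IL-27-labelled array, short of the 2-fold mark, and 436 of 7133 genes had a difference as low. Gzma, a tryptase-like granzyme, had intensities of 34.3 and 15.2. Only the untreated-labelled array was above the floor, so Gzma was at least 1.64-fold lower, and its measured difference of -1.18 passed the 2-fold mark only with a value below background. Gzmc, a relative of Gzmb encoded beside it on chromosome 14, stood near the floor at 31.3 and 26.95 and differed by -0.21. Gzmk, a tryptase-like granzyme whose gene lies next to Gzma on chromosome 13, was below the floor on both arrays, at 15.1 and 13.1, and has no fold. Of the other granzymes listed, Gzmd, Gzme, Gzmf, Gzmg, Gzmm and Gzmn, 6 of 6 were measured and 0 were above background, with a highest intensity of 13.4. Gzmb was thus the 1 granzyme far above background on either array. Gzmb shares sequence with Gzmc and other granzymes of its cluster, so their probe sets may take up related transcripts.

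Among the proteins listed with the cargo, the differences were large for Ctsw and Nkg7 and small for Srgn. Each was measured above the floor on both arrays by 1 probe set of the plain type. Ctsw, a cysteine protease of cytotoxic lymphocytes, had intensities of 972 and 122, a difference of -2.99, and 20 of 7133 genes had one as low. Nkg7, a membrane protein of granules that is needed for efficient degranulation, stood at 2722 and 884, a difference of -1.62. Srgn encodes serglycin, which holds granzymes and perforin inside the granule and is also made by many other blood cells. Its intensities were 6264 and 5069 and its difference -0.31. Ctsw and Nkg7 were the only members both above background on the 2 arrays and at least 2-fold apart. Over the 5 members above the floor on both arrays, the count of 2 called lower compares with 2.23% of such genes.

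The NK receptors were seen on the untreated-labelled array alone. Klrd1 encodes CD94, which pairs with NKG2 chains to read the class I molecule Qa-1. It read 114 and 16.4, so it was lower by a factor of at least 5.46. Klrk1 encodes NKG2D, an activating receptor for stress-induced ligands. It had intensities of 68.2 and 14.7 and was lower by a factor of at least 3.26. Klrd1 and Klrk1 are neighbours in the NK gene complex on chromosome 6. Of their 5 listed partner chains and adaptors all were measured and 2 were above background. Of these 2, 0 were at least 2-fold apart by their brightest probe set. Over all genes above background 2.66% were at least 2-fold lower and 1.46% higher. Klrc1, the inhibitory partner NKG2A, had intensities of 37.6 and 23.2 by its brighter probe set, a difference of -0.70. Its other probe set had a measured difference of -1.68, past 2-fold, from 31.9 to a value below the floor, or at least 1.53-fold lower. Hcst, the adaptor DAP10 through which NKG2D signals, stood at 219 and 159, a difference of -0.47. The adaptor gene Tyrobp, named after its values were seen, was below the floor, at 13.5 and 10.4. H2-T23, which encodes Qa-1, was the 1 ligand gene measured of 10 listed, at 3564 and 3642 by its brighter probe set and differing by -0.30 by the other.

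**Figure D3:**
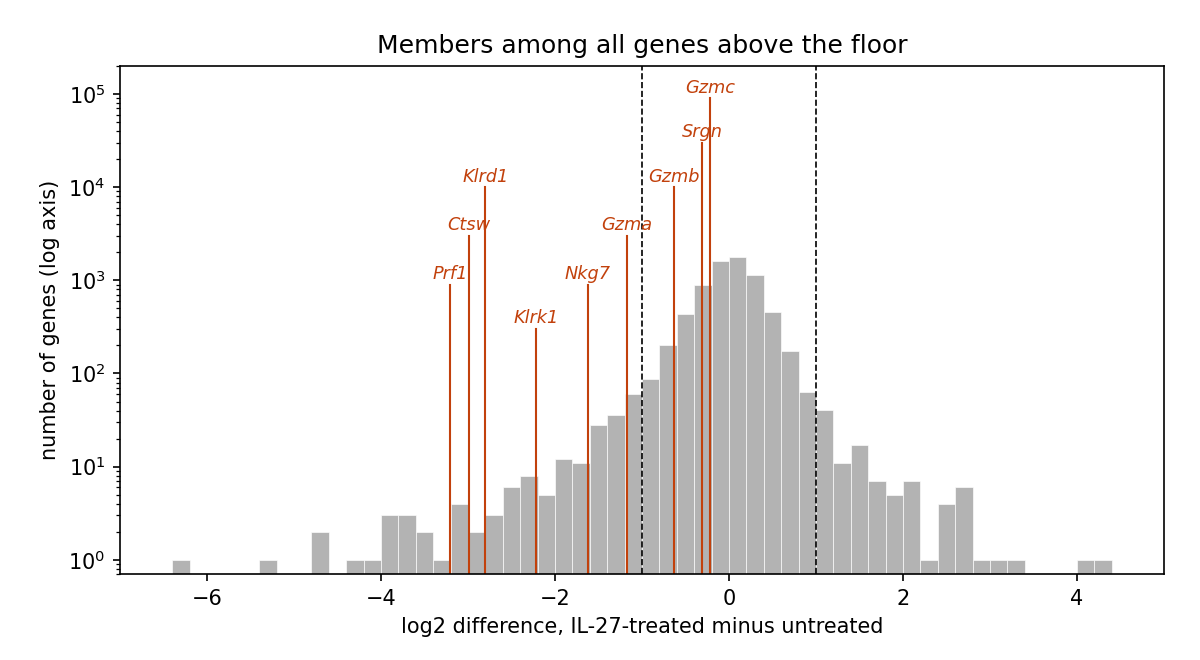
Number of genes (y axis, log scale) by measured log2 difference, IL-27-treated minus untreated (x axis), for the 7133 genes above background on at least 1 array, with the 9 members above background marked by orange lines whose heights only separate the names. Dashed lines mark 2-fold, and 6 members lie below -1 while Gzmb, Srgn and Gzmc lie between -1 and 0.

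The rest of the granule machinery was mostly within 2-fold, as were most genes above background. Of those genes 2.66% were at least 2-fold lower and 1.46% higher, for comparison with the counts below. Of 20 listed genes of granule membrane, maturation and exocytosis, 16 were measured, 14 were above background, 1 was at least 2-fold lower and 0 higher, with a median of -0.10. The lower gene was Cst7, which encodes cystatin F, an inhibitor of granule cathepsins, at 964 and 366, a 2.64-fold difference. Rab27a, a GTPase that docks granules, was at least 1.45-fold lower by its brightest probe set and below the floor by the other 2. Stxbp2, a syntaxin-binding protein needed for degranulation, differed by -0.38 and -0.45, and Ap3b1, which sorts cargo to secretory lysosomes, by 0.69 and 0.73, in each case by 2 probe sets. Ctsc, named after its values were seen, encodes the protease that activates granzymes and stood at 865 and 883. Of 5 listed inhibitors of granzymes 3 were above background and 0 at least 2-fold apart. Serpinb9, which blocks granzyme B, had intensities of 319 and 577, a difference of 0.86, Serpinb6b differed by 0.59 and Serpinb6a by -0.17.

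Among other weapons and receptors of cytotoxic cells, Fasl and Cd96 passed 2-fold upwards and 0 genes passed it downwards. Over all genes above background 1.46% passed it upwards and 2.66% downwards. Fasl, the death ligand of granule-independent killing, was 4.32-fold higher on the IL-27-labelled array, at 104 and 450, and 4.45-fold higher by its other probe set. It was the 1 gene at least 2-fold apart among 5 above background in a list of 6 death ligands, cytokines and receptors, where Lta differed by 0.21, Tnf by -0.22 and Tnfrsf10b was at least 1.10-fold higher. Of 30 further receptors of NK and cytotoxic cells, 20 were measured and 17 of these stayed under the floor. Of the other 3, Cd96 was 2.06-fold higher, at 51.3 and 105, Cd160 was at least 1.14-fold higher and the adhesion receptor Cd2 differed by 0.25.

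Transcription factors of cytotoxic programmes lay on both sides. Of 16 measured, all above background, 4 were at least 2-fold lower and 1 higher, with a median of -0.29. For this list and the cytokine and receptor genes below, the shares over all genes above background were 2.66% lower and 1.46% higher. Eomes, a T-box factor that drives perforin and granzyme B expression in CD8+ T cells, was 8.85-fold higher, from 32.8 to 290. Any link to the levels of Prf1 and Gzmb was not tested. Prdm1, which encodes Blimp-1, had intensities of 190 and 16.5 and was at least 9.08-fold lower. Nfil3 was 5.28-fold and Id2 5.27-fold lower, both regulators of NK cell development, and the homeodomain protein gene Hopx was 3.13-fold lower, at 2815 and 899. Stat5a, Zeb2 and Stat5b differed by -0.56, -0.51 and -0.50. Runx3, named after its values were seen because of the promoter letters, was near the floor at 34.03 and 30.3. Of 12 cytokine and receptor genes above background that bear on granule genes, 2 were at least 2-fold lower and 1 higher, with a median of 0.03. Il2 was 5.48-fold higher, Il21 14.4-fold lower and the IL-12 receptor chain Il12rb2 2.23-fold lower, while Il21r differed by -0.85, Ifng by 0.75 and Il27ra by -0.66.

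**Figure D4:**
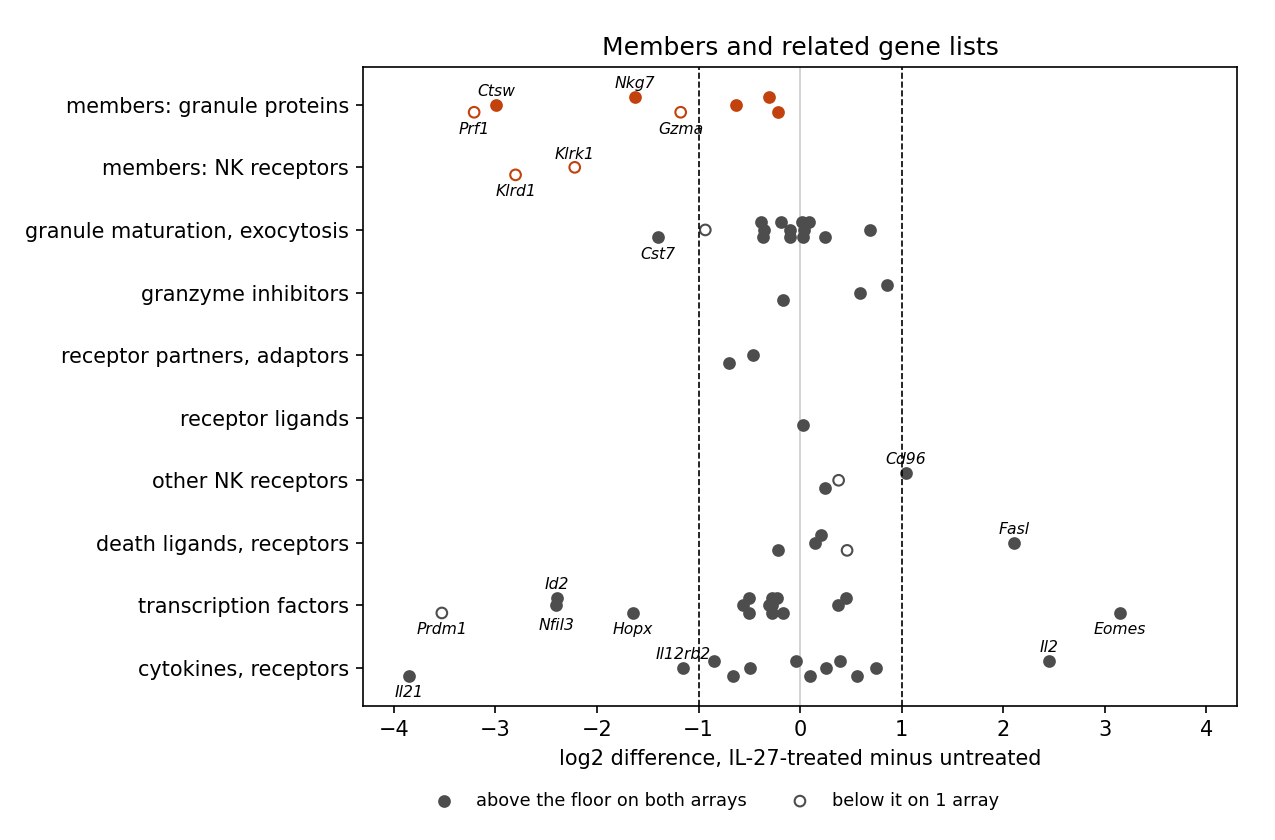
Log2 difference, IL-27-treated minus untreated (x axis), of each gene above background in the member lists (orange) and in related lists (grey), with open circles for genes below the floor on 1 array and dashed lines at 2-fold. The members lie between -3.21 and -0.21, while Eomes, Il2, Fasl and Cd96 lie above 1.

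Cd4, which marks the labelled cell type, was above background on both arrays at 343 and 395. It and the general T cell genes Cd3e, Cd3d, Cd3g, Cd5, Thy1 and Lat, which CD8+ T cells also express, differed by less than 2-fold, and the median over these 7 was -0.15. Of 6 defining NK cell markers 3 were measured (Ncr1, Klrb1c and Klra8) and 0 were above the floor, with a highest intensity of 14.8 and summed intensities of 33.9 and 35.9. On the untreated-labelled array Klrd1 and Klrk1 were above the floor and these 3 NK markers below it, and the part of NK cells was not tested. Of the CD8+ T cell markers, Cd8a was below the floor at 17.2 and 19.5 and Cd8b1 above it at 119 and 176. Their summed intensities were 137 and 196, and the part of CD8+ T cells in the result was not tested. The 1 gamma-delta T cell marker measured of 6, Sox13, was below the floor, as was the NKT cell factor Zbtb16. Cd1d1, which encodes the CD1d molecule that NKT cells recognise and does not mark those cells themselves, was at 28.9 and 39.4. Of 6 macrophage and monocyte markers 2 were above background, with summed intensities of 131 and 101. Among them Cd68 moved with the members, at 54.9 and 27.5, and Csf1r stood at 26.2 and 24.4, and the part of such cells in the result was not tested. B cell and granulocyte markers were at or near the floor, with Cd79b at most 25.6 and Elane at most 24.2.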

How the data were processed

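Gene expression was measured on 2 Affymetrix arrays, labelled from total RNA with a 3' in vitro transcription kit, per the labels' protocols. The deposited intensity of each of 22716 probe sets is on a linear scale and was made by the authors with RMA, per the submitters' processing notes, in a version not given in the sources used here. The method makes the arrays' distributions alike (median intensities of 33.3 and 32.4), which hides any change in total RNA, and it compresses dim differences. With 1 array per group their number limits the precision of every value, and no p-value or error is given.

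Symbols came from GEO's platform annotation: 18003 probe sets had 1 symbol, 287 several and 4426 none listed, and 17977 identifiers were found in a RefSeq table of GRCm38.p6, which changed 0 symbols. Intensities were converted to log2 with no pseudocount in Python 3.11.15 (pandas 2.3.3, statsmodels 0.14.6 for loess). The probe set brightest on average stood for a gene. The floor was the 95th percentile of both arrays' levels of 39 measured genes of 46 of other tissues, of which 3 lay above it. A gene was called at 2-fold or more by measured values if above the floor on at least 1 array. The code that makes the calls was checked on simulated arrays with known changes in bright genes with 1 probe set each. That check covers neither values below the floor nor the choice among probe sets of a gene. Named genes were the members, each list's genes at least 2-fold apart with up to 3 further ones of largest difference, and markers above the floor, with exceptions marked in the text. Members, lists and alternatives were chosen with earlier results of these data known. Promoter windows came from RefSeq, and 8 members had an entry. Granzyme protein comparisons were not analysed here.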

Additional observations from a re-analysis of the deposited data

How the results depend on the processing

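The count of members at least 2-fold lower was 5 or 6 under median centring, quantile and loess normalization, a pseudocount of 16 and dim values raised to the floor. It was also 5 or 6 with no filter on dim probe sets and with the mean or the dimmest of a gene's probe sets. The shares of all genes lower in these settings lay between 1.63% and 2.8%. At a 1.5-fold threshold 7 members were lower (7.16% of genes) and at 3-fold 5 (0.981%). The count of members higher was 0 in each of these settings. The filter on dim values decided more. With only genes above the floor on both arrays, 5 members remained, 2 of them lower (2.23% of such genes), and the median was -0.63. The 4 members below the floor on the IL-27-labelled array drop out by construction. The median was -1.40 with no filter, as Gzmk enters, and -1.18 with the dimmest probe set, as Prf1 is then read by its other probe set. Without probe sets whose names mark matches to more than 1 transcript, 3 member probe sets were lower in place of 6, beside 2.41% of all probe sets kept. The brighter Prf1, Gzma and Klrk1 probe sets are of the kind left out. Settings chosen after seeing the data were a floor of 2 times the intensity and a floor at the 99th percentile. The first left 7 members, 5 of them lower (2.77% of genes), with a median of -2.22. The floor at the 99th percentile is set by Tg, a thyroid gene with intensities of 2199 and 2341. It left 3 members, 1 of them lower (2.86% of 420 genes), with a median of -0.63. The difference of the dimmer Prf1 probe set turned to 0.0021 after quantile normalization, and no other member probe set changed sign under any normalization tried. With the pseudocount, and likewise with values raised to the floor, 4 member probe sets moved by more than 0.21, the median range between probe sets of 1 gene, and all 4 are below the floor on 1 array. The normalizations shifted the median of all genes by at most 0.04. No paired analysis was possible because each group has 1 array.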

Other observations

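Few genes beside the members on their chromosomes were above background. The 2 nearest protein-coding genes on each side of each member, in RefSeq order, gave 28 distinct neighbours that are not members. Of these 16 were measured and 5 were above background, and 0 of the 5 were at least 2-fold lower or higher, where 2.66% of all genes above background were lower and 1.46% higher. The 5 lie near Ctsw, Klrd1 and Srgn, and none of the measured neighbours of Prf1 was above background, while for Nkg7 none was measured. The 5 were named after their values were seen. Fibp and Mus81, on either side of Ctsw on chromosome 19, differed by -0.28 and -0.48, where Ctsw differed by -2.99. Gabarapl1, near Klrd1 on chromosome 6, had intensities of 752 and 449 and differed by -0.74. Vps26a and Ddx21, near Srgn on chromosome 10, differed by 0.13 and -0.09. In the granzyme cluster on chromosome 14, Gzmf and Gzmn, beside Gzmc, were below the floor on both arrays. The neighbours Gzma and Gzmk on chromosome 13 differed in level on the untreated-labelled array relative to the floor, with Gzma above it by 0.72 on the log2 scale and Gzmk below it.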
